A study of Bos taurus with 16 samples.

Results

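The transcripts described here are those of 10 genes known from the mammalian oocyte or for maternal effects on the embryo, namely EIF4E1B, GDF9, BMP15, ZAR1, NLRP5, OOEP, KPNA7, ZP2, ZP3 and DPPA3. They were looked up by symbol in count tables of bovine blastocysts, and 9 of the 10 symbols were found, each at 1 of the 22358 loci. BMP15 was not analysed here. EIF4E1B was chosen partly because nearly all of its counts lay in a single control pool, so its values are given as a description, without a test.

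The embryos came from 8 Holstein cows, 4 per treatment. Both treatments used the same basal diet from calving until the embryos were flushed, and only the methionine-rich diet carried added rumen-protected methionine. All cows were superovulated and inseminated, and expanded blastocysts were flushed about a week later according to the study's methods, although the labels call the tissue IVF embryos. Semen of 1 of 2 sires was used for each cow. The blastocysts of each cow were divided into 2 pools, which gave 8 control pools, named C1.1 to C4.2 by cow and pool, and 8 methionine-rich pools, named M5.1 to M8.2. Each pool held only 1 to 4 blastocysts, and the RNA was amplified before sequencing. Both pools of control cow 4 and pool M8.2 held 1 blastocyst each. According to the study's supplement, the methionine-rich pools mostly held more blastocysts than the control pools, and the RNA quality number was lower in several of them. The 2 pools of a cow share the cow and are not independent replicates of the diet. Pool C3.2, in which few reads fell on exons, was left out, as it was by the authors. The comparisons below are between 7 control and 8 methionine-rich pools.

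In a growing oocyte, large amounts of mRNA are made and stored, and they direct the first cleavages before the embryonic genome is switched on. Most of these maternal transcripts are then degraded, so that by the blastocyst stage the embryo depends largely on its own transcription. The genes considered here cover the oocyte's secreted growth factors, its glycoprotein coat, the cytoplasmic complex that the early cleavages require, and factors that store or translate mRNA, carry proteins into the nucleus or protect DNA methylation.

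The total count per pool ranged between 5624126 and 7826542 (median 7257007) over the 15 pools and came to only 1745048 in C3.2. Values are counts or CPM, the counts scaled to a common total per pool. A gene with 0 counts in a pool can still have had up to 3 counts there, which corresponds to 0.383 to 0.533 CPM in the 15 pools and to 1.72 CPM in C3.2. Counts over 3 are called detected below. These limits cover counting error only, because amplified reads are not independent molecules. Of 7 trophectoderm markers 5, with KRT18, GATA2 and KRT8 among them, were detected in all 15 pools, while CDX2 was detected in 10 and TFAP2A in 4. The inner cell mass markers POU5F1 and SOX2 were detected in all 15 pools and NANOG in 13. The hypoblast markers PDGFRA and GATA6 were detected in all 15 pools, whereas GATA4 had at most 3 counts and SOX17 had 0 counts in every one of them.

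The transcripts differed widely in how regularly they were found. DPPA3 was detected in all 15 pools, ZP3 in 14 and OOEP in 11, whereas GDF9 and ZP2 were detected in 4 pools each, NLRP5 in 3, ZAR1 and KPNA7 in 2 each, and EIF4E1B in 1. Of the 135 values that the 9 genes gave in 15 pools, 56 were over 3 counts, which is 41.5%. The control pools held between 2 and 5 of the 9 genes over 3 counts, with a median of 3, and the methionine-rich pools between 3 and 6, with a median of 4. In all, 23 of 63 values (36.5%) were over 3 counts in the control pools and 33 of 72 (45.8%) in the methionine-rich pools, which is a description and was not tested. The part of the larger number of blastocysts in the methionine-rich pools, and of their RNA quality, in this and in the GDF9 values below was not tested. The pool with the most of these genes was M6.2 with 6, followed by C2.2 and M7.2 with 5 each. Over the 17409 loci with at least 1 count, the median number of pools with more than 3 counts was 8, and 33.2% of these loci were over 3 counts in all 15 pools.

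**Figure D1:**
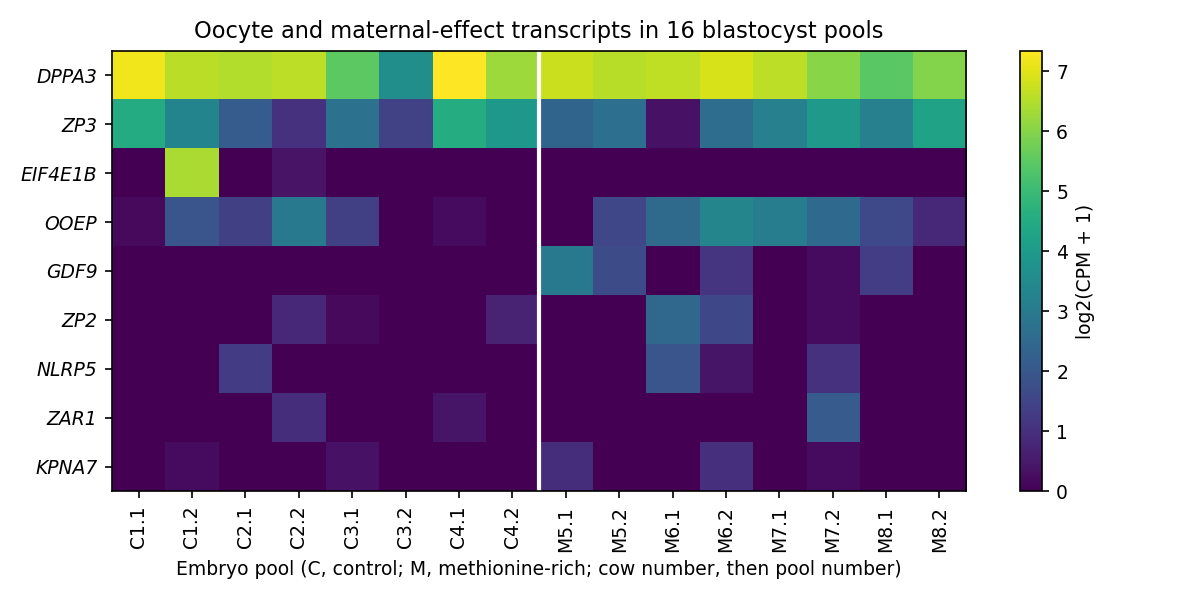
Level of 9 oocyte and maternal-effect transcripts (rows, highest mean at the top) in each of the 16 blastocyst pools (columns, control left of the white line and methionine-rich right of it), as log2(CPM + 1) on the colour scale. DPPA3 was present in every pool, EIF4E1B stood out in C1.2 alone, and GDF9 had no counts in the 8 control pools. Of these, C3.2 could not show a level under about 1.72 CPM.

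DPPA3 encodes a maternal factor that protects DNA methylation in the zygote and is also made by pluripotent cells and germ cells. In the control treatment, the first and second pools gave 1096 and 629 counts for cow 1, 504 and 620 for cow 2, and 976 and 586 for cow 4, and the single pool of cow 3 gave 326. In the methionine-rich treatment, the first and second pools gave 768 and 703 counts for cow 5, 721 and 699 for cow 6, 761 and 422 for cow 7, and 310 and 460 for cow 8. The highest values were in control cows 1 and 4 and the lowest in C3.1 and cow 8, and the ranges of the treatments overlapped. The mean was 101 ± 40.0 CPM (SD, n = 7 pools) in control and 85.1 ± 25.6 CPM (SD, n = 8 pools) in methionine-rich embryos. Pool C3.2, left out of these means, had 20 counts, or 11.5 CPM, fewer than any of the 15 pools.

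Part of the spread in DPPA3 lay between pools of the same cow. The 2 pools of a cow differed by 6.33 to 85.6 CPM, with a median of 19.4 CPM over the 7 cows with both pools, whereas the means per cow ran from 43.9 CPM in cow 3 to 120 CPM in cow 1, a range of 75.5 CPM. From the highest, the cows were ordered 1, 4, 6, 5, 2, 7, 8 and 3, with 118 CPM in cow 4, 108 in cow 6, 99.3 in cow 5, 92.8 in cow 2, 80.7 in cow 7 and 52.6 in cow 8. Apart from cows 7 and 8, neighbours in this order differed by less than that median difference between pools of a single cow.

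ZP3 and ZP2 encode glycoproteins of the zona pellucida, the coat that the oocyte lays down and from which the expanded blastocyst hatches. ZP3 had 165 and 60 counts in the pools of control cow 1, 19 and 7 in those of cow 2, 42 in the single pool of cow 3, and 136 and 110 in those of cow 4. For the methionine-rich cows it had 30 and 41 counts in the pools of cow 5, 2 and 31 in those of cow 6, 64 and 96 in those of cow 7, and 59 and 132 in those of cow 8. Control cows 1 and 4 and methionine-rich cows 7 and 8 were high, and cows 2 and 6 were low, so each treatment held cows of both kinds. The mean was 11.1 ± 8.61 CPM (SD, n = 7) in control and 7.98 ± 5.72 CPM (SD, n = 8) in methionine-rich embryos. Means per cow ran from 2.23 CPM in cow 2 to 18.3 CPM in cow 4, and pools of 1 cow differed by 1.28 to 12.8 CPM.

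ZP2 was found far less often than ZP3. It had 5 counts in C2.2, 1 in C3.1 and 5 in C4.2, and in the methionine-rich pools 34 in M6.1, 12 in M6.2 and 1 in M7.2, with 0 in the other 9 pools. Cow 6 alone had both pools over 3 counts. The means were 0.222 ± 0.338 CPM (SD, n = 7) in control and 0.851 ± 1.68 CPM (SD, n = 8) in methionine-rich embryos. In M6.1, where ZP2 was highest, ZP3 had its lowest count among the 15 pools.

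OOEP and NLRP5 belong to the subcortical maternal complex, a structure under the oocyte membrane that is needed for the first cleavages. OOEP had 1 and 19 counts in the pools of control cow 1, 9 and 44 in those of cow 2, 12 in the single pool of cow 3, and 1 and 0 in those of cow 4. The methionine-rich cows gave 0 and 15 counts for cow 5, 35 and 54 for cow 6, 58 and 31 for cow 7, and 15 and 6 for cow 8. It was over 3 counts in 4 of 7 control and 7 of 8 methionine-rich pools, the values of the treatments overlapped, and cow 4 had almost none in either pool. The mean was 1.88 ± 2.41 CPM (SD, n = 7) in control and 3.86 ± 3.21 CPM (SD, n = 8) in methionine-rich embryos. Means per cow ran from 0.0824 CPM in cow 4 to 6.93 CPM in cow 6, and 4 of the 7 cows with both pools had both over 3 counts.

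NLRP5, also called MATER, had 8 counts in C2.1 as its only control value. Among the methionine-rich pools it had 21 counts in M6.1, 2 in M6.2 and 7 in M7.2. The remaining 11 pools had 0 counts, and no cow had both pools over 3 counts. The means were 0.203 ± 0.538 CPM (SD, n = 7) in control and 0.533 ± 1.01 CPM (SD, n = 8) in methionine-rich embryos. Pool C2.1 also held nearly all counts of several leukocyte markers. Of 8 such markers 4, LAPTM5, NKG7, TYROBP and LCP1, passed the filter and were called higher in control by the exact test described below. C2.1 held 93.0% to 99.6% of the counts of each, so the call rests mainly on that pool and nothing is read from it. By the quasi-likelihood test, also described below, the false discovery rate of these 4 was 0.302 to 0.312. The summed level of the 8 markers was 2293 CPM in C2.1, with a range of 0.989 to 2293 CPM in control pools and 0 to 6.68 CPM in methionine-rich pools, and CD3E had 0 counts throughout. LAPTM5, a lysosomal protein of leukocytes, had 6969 of its counts in C2.1, and NKG7, of cytotoxic lymphocytes, had 2698 there. PTPRC, the general leukocyte marker, was not confined to C2.1. It had 18 counts there, the most of the 7 control pools, but 48 of its 76 counts in M8.1, and 278 in C3.2. The part of such cells in the NLRP5 value was not tested. Some oocyte genes were also highest in C2.1, and are named here after their values were seen. They were DAZL with 59 of its 65 counts, TLE6 with all 14 and NLRP9 with 9 of 14. Of the 39 oocyte genes defined below, 11 were over 3 counts in C2.1 and 27 had 0 counts there.

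ZAR1 encodes an RNA-binding protein that stores maternal mRNA in the oocyte. It had 6 counts in C2.2, 2 in C4.1 and 22 in M7.2, and 0 in the other 12 pools, so that neither treatment had it over 3 counts in more than 1 pool. Its means were 0.180 ± 0.352 CPM (SD, n = 7) in control and 0.418 ± 1.18 CPM (SD, n = 8) in methionine-rich embryos. KPNA7, an importin alpha of the oocyte that carries proteins into the nucleus, had 1 count in C1.2, 2 in C3.1, 7 in M5.1, 6 in M6.2 and 1 in M7.2. The means of KPNA7 were 0.0599 ± 0.108 CPM (SD, n = 7) and 0.266 ± 0.449 CPM (SD, n = 8), respectively. Both genes lay near the smallest level that this depth can show.

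GDF9, a growth factor that the oocyte secretes to direct the surrounding cumulus cells, was the gene whose treatments were most sharply divided among those not chosen on their pool values. All 7 control pools compared had 0 counts. C3.2 also had 0, but 3 counts there correspond to 1.72 CPM, more than the methionine-rich mean, so its 0 adds little. The methionine-rich pools gave 50 and 17 counts for cow 5, 0 and 7 for cow 6, 0 and 1 for cow 7, and 11 and 0 for cow 8. Cow 5 therefore held most of the counts, 3 of the 8 methionine-rich pools had none, and the value of cow 7 rested on 1 count. The mean was 1.50 ± 2.34 CPM (SD, n = 8) in methionine-rich embryos. The level over all methionine-rich pools, 1.51 CPM, was 23.9 times the 0.0630 CPM that 3 counts over the 7 control pools would give. Without cow 5 it was 0.449 CPM, or 7.13 times that value. These ratios allow for counting error in the control pools alone and are no lower limits of the difference.

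**Figure D2:**
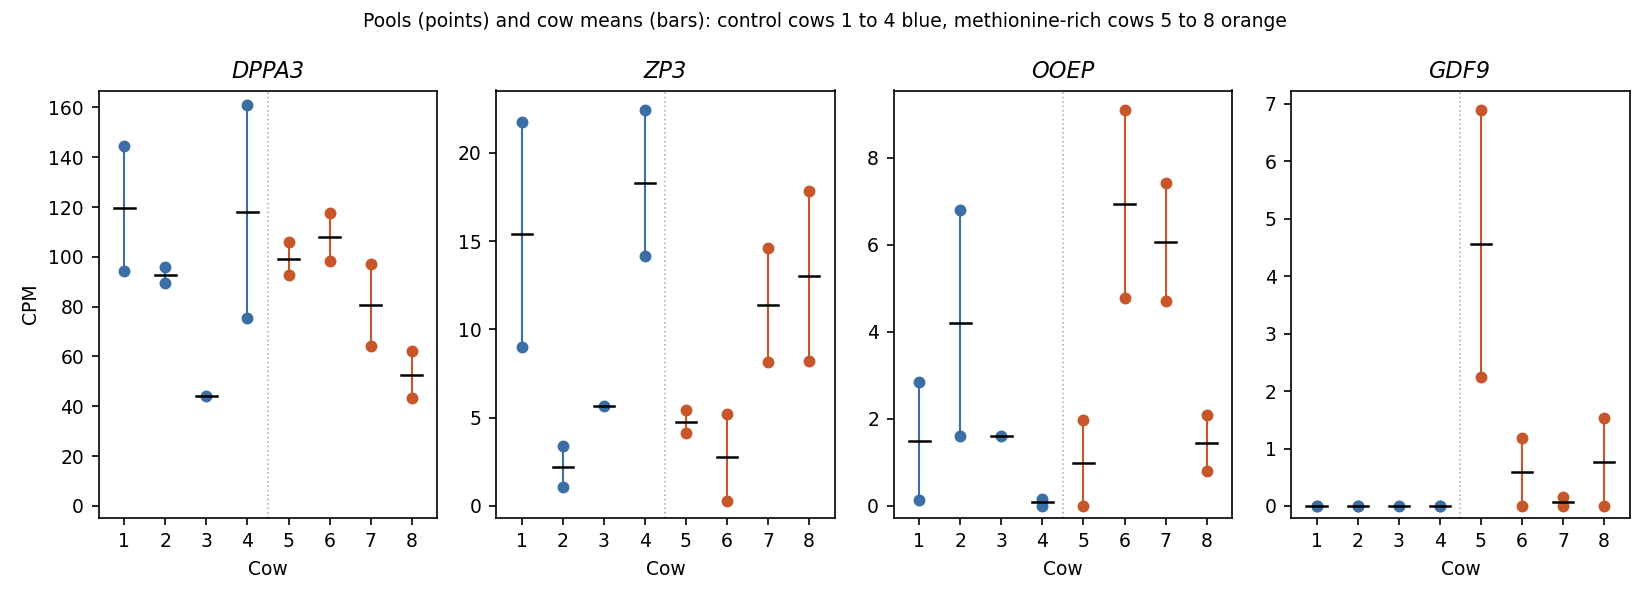
CPM of DPPA3, ZP3, OOEP and GDF9 in each pool (points), with a line joining the pools of a cow and a black bar at the mean of the cow, for control cows 1 to 4 (blue) and methionine-rich cows 5 to 8 (orange), without pool C3.2. The cows of the treatments overlapped for DPPA3, ZP3 and OOEP, and for GDF9 the control cows were at 0 while the methionine-rich cow means ran from 0.0760 to 4.57 CPM.

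Means per cow were compared by a two-sided exact permutation test that enumerates all 70 ways to assign 4 of 8 cows to each treatment, for the 8 genes other than EIF4E1B. GDF9 had means of 4.57, 0.589, 0.0760 and 0.766 CPM in cows 5 to 8 and 0 in the control cows, with p = 0.0286 in this exact permutation test, the smallest p the design allows. After Benjamini-Hochberg adjustment over all 17409 loci with a count, the p of this permutation test was 1.0. GDF9 was also the only 1 of the 8 genes whose cow means did not overlap between treatments. This separation, and with it the p of 0.0286 in the exact permutation test, rests on the 1 count of cow 7, in M7.2. That count is under the limit for detection, so cow 7 cannot be told from the control cows. Among all 17409 loci, 291 (1.67%) had cow means that did not overlap, and 156 (0.896%) did so with the methionine-rich cows higher. The exact permutation p of the other 7 genes was 0.257 for KPNA7, 0.314 for OOEP, 0.6 for ZP3, 0.657 for DPPA3, 0.714 for NLRP5, 0.971 for ZP2 and 1.0 for ZAR1. These differences were within the spread between cows, and in 5 of them leaving out 1 cow turned the sign (DPPA3, ZP3, ZP2, NLRP5 and ZAR1). In pools of whole embryos, fewer cells with a transcript and less of it per cell cannot be told apart.

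The fit across all loci was edgeR's exact test on loci with summed CPM of at least 15, with a gene called when its false discovery rate (FDR) was below 0.1 and the difference 2-fold or more. DPPA3, ZP3, OOEP and EIF4E1B passed this filter, EIF4E1B only through pool C1.2, and the other 5 genes did not. The log2 fold change, methionine-rich over control, was -0.28 for DPPA3 (exact test FDR = 0.998), -0.46 for ZP3 (exact test FDR = 1.0) and 1.15 for OOEP (exact test FDR = 0.968). With 1 cow left out in turn, they ranged from -0.40 (without cow 3) to -0.12 (without cow 1) for DPPA3, from -0.86 (without cow 2) to -0.04 (without cow 4) for ZP3 and from 0.69 (without cow 4) to 1.99 (without cow 2) for OOEP. DESeq2 gave -0.27 with a standard error of 0.30 for DPPA3, -0.44 with 0.71 for ZP3 and 1.17 with 1.06 for OOEP, so that the estimate was smaller than its standard error for DPPA3 and ZP3 and close to it for OOEP. Of these 3 genes 0 were called, beside 110 of 10519 loci (1.05%), of which 81 (0.77%) had more RNA in control embryos and 29 (0.276%) in methionine-rich embryos. The median log2 fold change of all loci tested was -0.05. By edgeR's quasi-likelihood test 0 of 10519 loci (0.0%) were called, with 909 at an unadjusted p under 0.05, and DESeq2 called 67 and limma's voom, which took the cow as a random effect, 0. EIF4E1B was among the loci called by the exact test, in the contrast on which it was partly selected, and nothing is read from that call. With no filter, GDF9 was not called either (edgeR exact test FDR = 0.350).

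**Figure D3:**
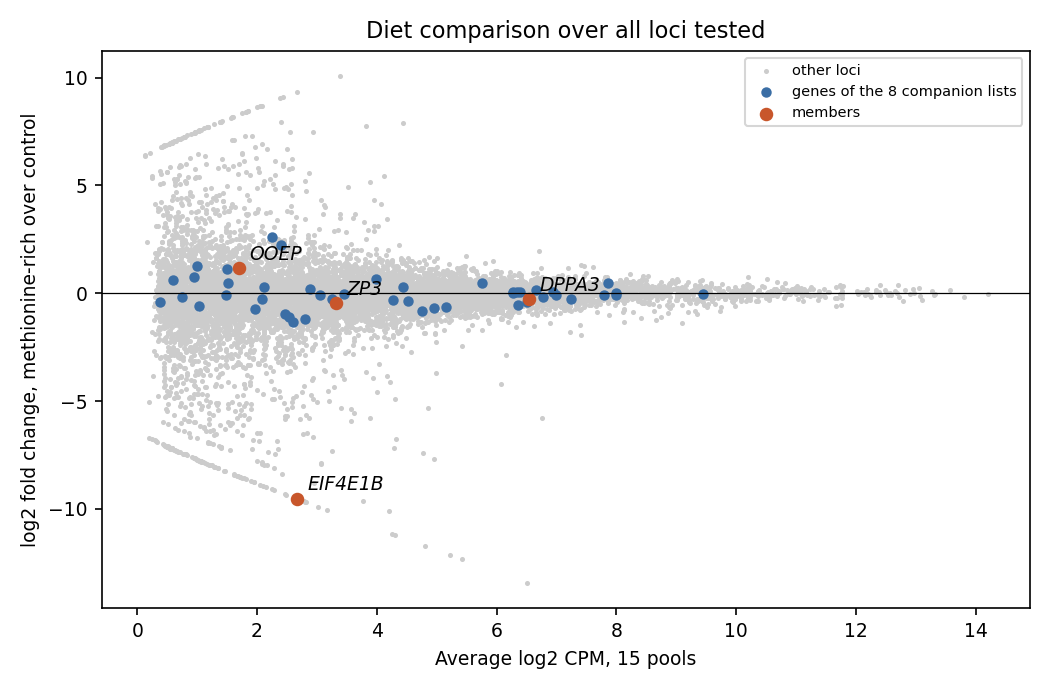
Difference between treatments (log2 fold change, methionine-rich over control, edgeR) against the average log2 CPM over 15 pools for the 10519 loci tested (grey), the genes of the 8 companion lists (blue) and the 4 genes considered here that passed the filter (orange). DPPA3, ZP3 and OOEP lie among the other loci, at -0.28, -0.46 and 1.15, and EIF4E1B lies on the lower edge formed by loci with no counts in one treatment.

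EIF4E1B encodes a form of the cap-binding protein eIF4E that is made in the oocyte and acts in translation of stored mRNA. It had 564 counts in C1.2, 2 in C2.2 and 0 in the other 13 pools and in C3.2, so that 564 of its 566 counts came from 1 pool. C1.1, the other pool of the same cow, had 0 counts. The level in C1.2 was 84.6 CPM, against 0.0489 CPM over the other 6 control pools. Over the control pools it was 11.9 CPM, which is 226 times the 0.0525 CPM of 3 counts over the 8 methionine-rich pools, and that ratio rests on C1.2. Such loci were not rare. Of the 10519 loci tested, 314 (2.98%) had at least 90% of their counts in 1 pool, 27 of them in C1.2, 87 in C2.1 and 33 in M6.1, whereas the median locus had 19.5% in its highest pool.

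The loci whose log2(CPM + 1) followed EIF4E1B most closely over the 15 pools were all highest in C1.2. FMO1, a flavin-containing monooxygenase, had 259 counts there and at most 1 elsewhere (Pearson r = 1.0). LOC505451 had 1811 counts there (r = 0.999), LOC788653 155, LOC100849266 158 and STOML1 150 (r = 0.998 each). These correlations rest on that 1 pool. Among genes that adjoin EIF4E1B in the RefSeq order of assembly ARS-UCD2.0, GPRIN1 and SNCB had 0 counts in C1.2, UNC5A had 1 and TSPAN17 had 25, within its range of 3 to 734 in control pools. Few other oocyte genes had their highest count in C1.2. FST, which encodes the activin-binding protein follistatin, had 69 of its 81 counts there. Chosen after their values were seen, WEE2, a meiotic kinase of the oocyte, had 92 counts in C1.2 but also 97 in M6.1, and ASTL, the protease that hardens the zona, had 18 of its 25 counts in C1.2. Over 39 oocyte genes, which are the 9 described here and the companion genes of the zona, the subcortical complex and the germ line, 10 were over 3 counts in C1.2 and 25 had 0 counts there, GDF9, ZP2, NLRP5, ZAR1, ZP4 and OOSP1 among them. The number over 3 counts lay within the range of 5 to 14 of the control pools.

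Markers of other cells were compared in C1.2 with the other pools. Of 10 cumulus and granulosa markers 2 passed the filter, FOXL2 and INHA had 0 counts in all 15 pools, and the summed level was 1.50 CPM in C1.2, the lowest of the control pools, which reached 57.0 CPM, against 3.30 to 49.2 CPM in methionine-rich pools. The sum in C1.2 rested on 10 counts of CYP19A1 alone. CYP19A1 was the only marker of this list detected in all 15 pools, with 10 to 443 counts in control and 17 to 355 in methionine-rich pools. INHBA, the other marker that passed the filter, had 0 to 148 and 0 to 20 counts. The leukocyte markers summed to 30.6 CPM in C1.2, where NKG7 had 191 counts and LAPTM5 had 5. For the oviduct and endometrium markers the sum was 0.300 CPM in C1.2, in a range of 0 to 2.94 CPM in control and 0.132 to 26.0 CPM in methionine-rich pools, with PAEP at 0. Of the 5 sperm markers found, PRM1 and PRM2 were at 0 and TNP1 had 169 counts in C1.2, within its range of 1 to 501 in control pools and beside 6 to 946 in methionine-rich pools. The part of these cells in the EIF4E1B value was not tested.

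DPPA3 was followed most closely by LOC100849444 (Pearson r = 0.841 over 15 pools), the mitotic kinase gene CDK1 (r = 0.822) and NUP155 of the nuclear pore (r = 0.806). For ZP3 the closest were LOC100849189 (r = 0.832), ZBTB9 (r = 0.776) and MPV17 (r = 0.766). These are descriptions across pools that share cows and amplification.

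Companion genes with related roles were found to very different degrees. Of the zona pellucida and oocyte-secreted genes other than those above, 6 were found and 1, ZP4, passed the filter. ZP4, a further zona glycoprotein, was detected in 8 pools, with 0 to 28 counts in control and 0 to 48 in methionine-rich pools (log2 fold change 0.77, edgeR exact test FDR = 1.0). OOSP1, an oocyte-secreted protein, had 0 counts in every control pool and up to 21, in M5.1, among the methionine-rich pools, of which 4 had it over 3 counts. Of 8 further genes of the subcortical complex and the oocyte NLRP family none passed the filter, and their median was 0.5 pools over 3 counts. NLRP14 (listed as LOC782386) was detected in 5 pools with at most 20 counts, TLE6 had 14 counts in C2.1 and 0 in the other 14 pools, and NLRP9 had 9 of its 14 counts in C2.1.

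Many genes that store, translate or clear maternal mRNA were present throughout, but others were found in few pools. Of 14 such genes 12 passed the filter, 8 were detected in all 15 pools, and 0 were called in either direction by edgeR's exact test. The least often detected were ZAR1L and BTG4 in 6 pools each, CPEB1 in 5 and PATL2 in 0. LSM14A and DDX6, proteins of RNA granules, had 501 to 2438 and 658 to 3333 counts in control pools and 338 to 3765 and 592 to 2811 in methionine-rich pools. ZFP36L2, which promotes mRNA decay, had 253 to 1215 and 230 to 1107. The median log2 fold change of the 12 was 0.00, beside -0.05 over all loci.

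Among the relatives of EIF4E1B and of KPNA7, 4 of 7 genes in each list were detected in all 15 pools. The least often detected were EIF4EBP2 in 3 pools, KPNA5 in 4 and KPNA6 in 6. EIF4E, the general cap-binding protein, was detected in all 15 pools with 904 to 2627 counts in control and 847 to 3070 in methionine-rich pools, and its 1320 counts in C1.2 lay within that range. Of the 7 genes of the eIF4E family and its partners 6 were tested and 0 called, with EIF4G1, the scaffold of the cap-binding complex, at 384 to 1986 counts in control and 336 to 2689 in methionine-rich pools, EIF4E2 at 215 to 1647 and 251 to 1488, and a median log2 fold change of -0.27. Of 7 importins 6 were tested and 0 called, with a median log2 fold change of 0.12. KPNB1, the beta subunit, had 307 to 1605 counts in control and 13 to 2050 in methionine-rich pools, and KPNA2 had 230 to 1419 and 353 to 700, while KPNA1 reached 453 and 694.

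**Figure D4:**
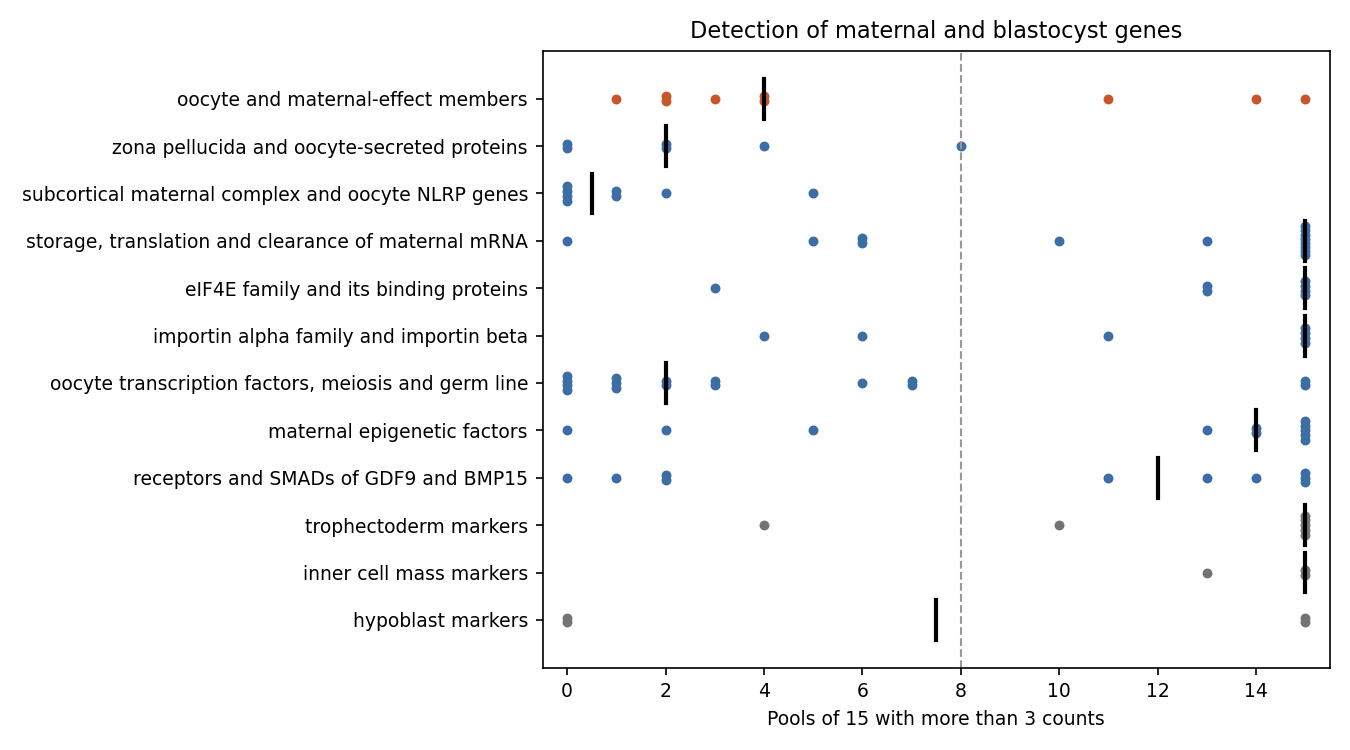
Number of the 15 pools in which each gene had more than 3 counts (points, 1 per gene), for the 9 oocyte and maternal-effect genes (orange), 8 companion lists (blue) and blastocyst markers (grey), with a black bar at the median of each list and a dashed line at the median of 8 over all loci with a count. Storage and translation factors, importins and trophectoderm markers had medians of 15 pools, while zona and secreted genes and oocyte transcription factors had medians of 2.

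Of 16 oocyte transcription factors and genes of meiosis and the germ line, 6 were tested and 0 called, the median was 2 pools over 3 counts, and 4 were over 3 counts in no pool. CCNB1, the mitotic cyclin, was detected in all 15 pools with 410 to 2198 counts in control and 545 to 1291 in methionine-rich pools, as was AURKC, a meiotic kinase also made in early embryos, with 39 to 640 and 23 to 445. LHX8, a transcription factor of the early oocyte, was detected in 7 pools, with up to 130 counts in C2.2. Maternal epigenetic factors were tested at 9 of 11 loci and 0 were called, with a median log2 fold change of -0.16. The methyltransferase DNMT3A had 2666 to 8056 counts in control and 3418 to 6484 in methionine-rich pools, and CTCF and SMARCA4 were also detected in all 15 pools. The least often detected of these factors were KDM1B in 5 pools, TET3 in 2 and DNMT3B in 0.

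Receptors and SMAD proteins that GDF9 and BMP15 act through were tested at 6 of 10 loci and 0 were called, with a median log2 fold change of -0.38. SMAD1 and SMAD2 were detected in all 15 pools, with 176 to 1407 and 57 to 759 counts in control and 68 to 930 and 56 to 429 in methionine-rich pools, and SMAD4 in 14 pools. SMAD5 was detected in 11 pools and SMAD3 in 0. Of the receptors, BMPR1A was detected in 15 pools and BMPR2 in 13, but TGFBR1 and BMPR1B in only 2 each and ACVR1B in 1. The blastocyst markers gave 0 calls as well, among 6 trophectoderm, 3 inner cell mass and 2 hypoblast genes tested. Of the 39 oocyte genes counted above, between 5 and 14 were detected per control pool, with a median of 7, and between 7 and 14 per methionine-rich pool, with a median of 11. Among these 39 is the mitotic cyclin CCNB1. Over all loci, those with at least 1 count numbered 10259 to 11580 per control pool and 10225 to 12096 per methionine-rich pool. These numbers are a description and were not tested. The part of the larger number of blastocysts in the methionine-rich pools in them was not tested either.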

How the data were processed

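RNA of 16 embryo pools was amplified, made into mRNA libraries and sequenced by the authors, who aligned reads to bosTau7 with TopHat2 2.0.4, assembled transcripts with Cufflinks 2.0.2 and counted reads per gene with HTSeq (versions from the submitters' processing notes where given). The deposited tables hold whole-number counts without normalization, in 22552 rows for 22358 loci, since 182 loci recur under several names, in 376 rows. Each locus was entered once. Whether strand was used in counting is not given in the sources used here. In RefSeq, ZAR1 overlaps FRYL and NLRP5 overlaps LOC132342887, so their few counts could include reads of these genes.

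CPM are counts over a pool's total. Treatments were compared with edgeR 4.0.16 in R 4.3.3 (TMM normalization, common and tagwise dispersions, exact test, Benjamini-Hochberg adjustment, prior count 0.125), beside its quasi-likelihood test, DESeq2 1.42.0 and limma 3.58.1. Except for voom, these fits take no account of the cow shared by 2 pools, and the code was tested on simulated data. Cow means were compared by exact permutation tests.

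The genes and lists were chosen with earlier results of these data known. Named are all members, the called genes of each companion list or otherwise its up to 3 genes of highest mean CPM, and the loci that correlate best with EIF4E1B (5) or with DPPA3 and ZP3 (3 each). Some further genes of the lists are named for how often, or in which pool, they were detected. NLRP14, KHDC3L and TET1 were matched through RefSeq names. No sequence was used here. The number of blastocysts per pool, the sire and the sequencing lane were not used.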

Additional observations from a re-analysis of the deposited data

Results flagged for a closer look

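In a group of 7 control or 8 methionine-rich pools, a value was picked out when its gap to the nearest other pool, divided by the range of the group, exceeded Dixon's 95% critical value of 0.568 for 7 pools or 0.526 for 8. EIF4E1B, chosen partly on its pool values, was left out. Of the 15 groups formed by the other genes and the treatments with any spread, 7 had such a pool, where chance alone would give about 5% of groups if values were normally distributed, which sparse counts are not. A group with counts in 1 pool alone always meets the rule, as ZAR1 did in the methionine-rich pools. Nothing about these genes is therefore read from the number of groups picked out. GDF9 in methionine-rich pool M5.1 was 6.89 CPM, from 50 counts, with 2.24 CPM next. ZAR1 was 0.928 CPM in C2.2 among control pools and 3.34 CPM in M7.2 among methionine-rich pools. NLRP5 was 1.42 CPM in C2.1 and 2.86 CPM in M6.1. OOEP in C2.2 was 6.81 CPM among control pools, with 2.85 CPM next, and ZP2 in M6.1 was 4.63 CPM among methionine-rich pools, with 2.02 CPM next.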

How the results depend on the processing

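None of DPPA3, ZP3 and OOEP was called under any alternative, and the direction of their fold changes was the same in all of them, although leaving out 1 cow moved their size by over 1.5 times, as given above. The number of loci called, 110 by edgeR's exact test, was 0 by the quasi-likelihood test, 67 by DESeq2, 0 by limma's voom when the cow was a random effect, 55 with no filter, 4 with at least 10 counts in 7 pools, 99 with the pools of each cow summed, 356 with all 16 pools, 64 without pool C2.1 (chosen after seeing the data) and between 62 without cow 8 and 153 without cow 4, with 66 without cow 7. The causes were not tested. A replicate block for the pool number in the quasi-likelihood test also gave 0. The pool numbers showed no pairing. Between a control and a methionine-rich pool, deviations from the treatment means correlated at -0.0076 for pools of the same number and 0.0076 for others, over 28 pairs each. Such deviations cancel within a treatment, so the 2 values are not separate results. Without any 1 cow, the number of genes with a permutation p under 0.05 fell from 1 to 0, since 7 cows cannot give a p below 0.0571. The GDF9 difference then ranged from 0.477 CPM without cow 5 to 1.97 without cow 7, against 1.50 CPM with all cows. The sign of the difference in cow means turned for DPPA3 without cow 1 (0.199) or cow 8 (2.40; lowest -25.0 without cow 3), for ZP3 without cow 4 (0.222; lowest -5.13), for NLRP5 without cow 6 (-0.000554; highest 0.533), for ZP2 without cow 6 (-0.185; highest 0.923) and for ZAR1 without cow 7 (-0.157; highest 0.400), all in CPM. Gene and pool values over 3 counts numbered 56, with 51 at 1 CPM or more and 45 over 10 counts (chosen after seeing the data). A count of 0 in a pool cannot be told from a level under about 0.4 to 0.5 CPM.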
